A study of Saccharomyces cerevisiae with 12 samples.

Results

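The large (60S) subunit of the yeast cytosolic ribosome is built from ribosomal RNA and the RPL and RPP proteins, most of them made from a pair of near-identical genes. The genes were taken by symbol: RPL followed by a number with an optional final A or B, together with RPP0, RPP1A, RPP1B, RPP2A and RPP2B. They numbered 80 of the 5636 genes measured, made up of 34 A and B pairs, 11 single-copy genes and RPL18B. RNA of 3 Saccharomyces cerevisiae deletion strains grown in 2% glucose was set against RNA of wild type in 2% glucose on two-colour Agilent arrays, 4 arrays per strain and 12 in all. Per the labels, the strains lack GCR1 (gcr1 null), NUP84 (nup84 null) or both (nup84gcr1 null). Each strain was represented by 2 biological samples with dye swaps, so n = 2 throughout. The labels name no strain background and no separate cultures, so p-values measure the spread between these samples only.

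Ribosomal protein genes are among the most heavily transcribed genes of growing yeast, and their transcription is adjusted together to growth rate and nutrients. Rap1 binds upstream of most of them and helps to recruit Fhl1 and its coactivator Ifh1, with Hmo1 at many of the same promoters. Gcr1 is an activator best known for glycolytic genes that also works with Rap1 at ribosomal protein genes, and Nup84 is part of the framework of the nuclear pore. The proteins have to be made in matched amounts, because a ribosome carries nearly all of them in equal number.

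The labels were checked on the deleted genes. NUP84 fell in the nup84 null, to a log2 ratio of -3.19 (adjusted p = 0.000549), and in the strain labelled nup84gcr1 null, to -2.74 (adjusted p = 0.000128). GCR1 did not. Its log2 ratio was above 0 on all 8 arrays of the strains labelled as lacking it, with a mean of 1.08 ± 0.21 (SE, n = 2) in the one labelled gcr1 null and of 0.78 ± 0.21 in the one labelled nup84gcr1 null. The sources used here do not give the position of the GCR1 probes relative to the deletion. These strains are therefore called the gcr1-labelled and the double-labelled strain below. All values are log2 of the deletion-strain signal over that of wild type, which carry no absolute level. The base of the deposited logarithm is not written and was taken as log2, so every fold below rests on that reading. A gene was called when its limma p, adjusted over 5636 genes, was under 0.05. Whether a probe tells the A copy of a pair from the B copy was not checked, so values of near-identical copies may repeat a shared signal.

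Transcripts of nearly the whole large subunit were lower than wild type in all 3 strains. The gcr1-labelled strain had 79 of 80 genes called lower, against 17.7% of all genes, with a median log2 ratio of -2.29, which is 4.87-fold below wild type. The nup84 null had 71 called lower, against 8.09% of all genes, with a median of -1.09 or 2.13-fold below wild type. The double-labelled strain had 78 called lower, against 18.9% of all genes, with a median of -2.09 or 4.24-fold below. No member was called higher in any strain, where 17.2%, 8.61% and 20.5% of all genes were. The medians over all genes were 0.03, -0.01 and 0.03 in the same order. Of the 80 members, 78 lay below wild type on each of the 12 arrays, as did 18.3% of all genes, and the exceptions were RPL15B and RPL7B.

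Most members lay close together. The quartiles of the mean log2 ratio were -2.53 and -2.06 in the gcr1-labelled strain, -1.25 and -0.97 in the nup84 null, and -2.40 and -1.76 in the double-labelled strain. A log2 ratio of at least 1 in size was reached, with the call, by 79 members in the gcr1-labelled strain, by 53 in the nup84 null and by 78 in the double-labelled strain. The count in the nup84 null rests on both samples: with arrays 1 and 3 left out, or with arrays 2 and 4 left out, 0 members were called there by limma, with 71 and 58 at an unadjusted p under 0.05. The counts of the other strains stayed between 77 and 79 under every such omission.

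The whole class shifted between arrays and with dye orientation. The median member stood at -1.75, -2.15, -2.32 and -2.95 on arrays 1 to 4 of the gcr1-labelled strain. The nup84 null gave -0.74, -0.97, -1.22 and -1.47, and the double-labelled strain gave -1.54, -1.74, -2.33 and -2.79. Arrays 3 and 4, with the deletion strain in Cy3, were thus lower than arrays 1 and 2 in each strain. This held for 78, 79 and 79 of the 80 members, against 65.6%, 64.7% and 65.6% of all genes. The median shift was -0.68, -0.55 and -0.86 for the members, -0.61, -0.50 and -0.91 for the 55 small-subunit protein genes and -0.17, -0.13 and -0.22 over all genes. Each strain mean holds both orientations equally, so a shift that adds the same amount with each dye cancels in it.

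**Figure D1:**
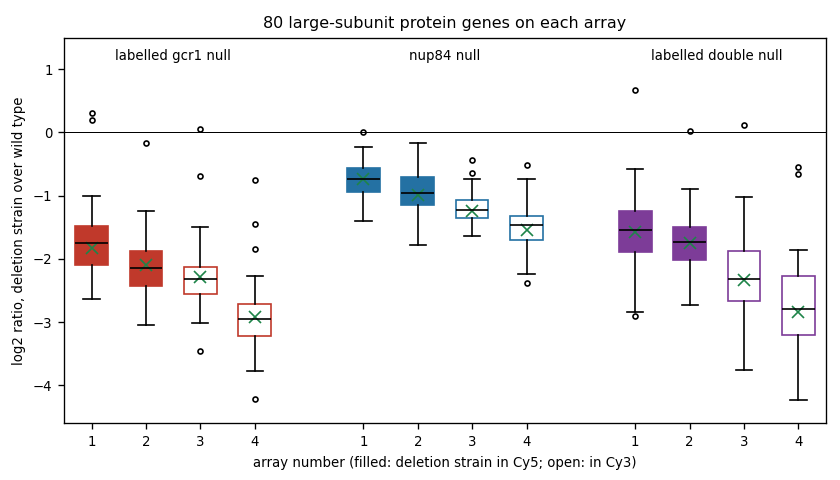
Log2 ratios of the 80 large-subunit protein genes on each array, as boxes of median and quartiles with whiskers to 1.5 interquartile ranges and points beyond. Filled boxes have the deletion strain in Cy5 and open boxes in Cy3, and green crosses mark the median of the small-subunit protein genes. In each strain the open boxes sit below the filled ones, and the crosses follow the boxes.

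RPL5 and RPL11 bring the 5S ribosomal RNA into the subunit as a small complex, and all 3 of its protein genes were lower in every strain. RPL5 gave log2 ratios of -1.68, -1.82, -2.28 and -2.67 on arrays 1 to 4 of the gcr1-labelled strain. In the nup84 null it gave -0.98, -0.77, -1.41 and -1.45, and in the double-labelled strain -1.37, -1.63, -2.26 and -3.20. The nup84 null arrays lay above all arrays of the gcr1-labelled strain but overlapped those of the double-labelled strain. RPL11A was among the lowest genes of the gcr1-labelled strain, 14th of 5636 from the bottom, with -2.41, -3.01, -2.57 and -3.40 (7.2-fold below wild type, adjusted p = 0.000132). Its nup84 null arrays stood at -0.70, -1.21, -0.85 and -1.41, none reaching the range of the first strain. The difference between those strains was -1.80 ± 0.35 for RPL11A, the largest of any member, and was not called (adjusted p = 0.0743). RPL11B averaged -2.40, -0.99 and -2.27 in the 3 strains, and the RPL11 copies differed by -0.45 in the gcr1-labelled strain (adjusted p = 0.0181).

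The lateral stalk recruits translation factors to the ribosome. RPP0 is its anchor, the acidic P1 and P2 proteins bind RPP0 in pairs, and RPL12 sits at its base. All 7 stalk genes were called lower in the gcr1-labelled and double-labelled strains, and 4 of 7 in the nup84 null, where RPP0, RPP1B and RPP2B were not called. RPP0 stood at -0.37, -0.42, -1.20 and -1.50 on the nup84 null arrays, a mean of -0.87 ± 0.29 (adjusted p = 0.0724). Its dye orientations were far apart there, with both Cy3 arrays well below both Cy5 arrays. RPP0 was also spread widely in the double-labelled strain, at -0.60, -1.23, -1.74 and -3.31, and still fell (mean -1.72, adjusted p = 0.0021). RPP1B averaged -0.71 ± 0.22 (adjusted p = 0.0625) and RPP2B -0.86 ± 0.30 (adjusted p = 0.0807) in the nup84 null. The base gene RPL12A lay lowest of the stalk genes in all 3 strains. It gave -2.27, -2.79, -2.77 and -3.72 in the gcr1-labelled strain, which made it 13th lowest of all genes. RPL12A averaged -1.36 in the nup84 null and -2.72 in the double-labelled strain, and RPL12B averaged -2.75, -1.32 and -2.50 in the 3 strains.

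The catalytic core and the tunnel through which the nascent chain leaves moved with the rest. RPL3 and RPL10 lie near the peptidyl transferase centre, and all 4 genes of that group (with RPL2A and RPL2B) were called lower in each strain. RPL10, the last of them to join and a protein that is loaded in the cytoplasm, changed least among the single-copy genes in the gcr1-labelled and double-labelled strains. Its arrays read -1.13, -1.25, -1.81 and -2.27 in the gcr1-labelled strain and -0.58, -0.95, -1.53 and -2.27 in the double-labelled strain. These are 3.06-fold and 2.52-fold below wild type (adjusted p = 0.00114 and 0.00232). The nup84 null arrays of RPL10 were -0.36, -0.73, -1.06 and -1.40, so its 3 strains overlapped. Of the 12 genes around the tunnel exit, 12, 10 and 12 were called lower, and the exceptions in the nup84 null were RPL17A (-0.63, adjusted p = 0.138) and RPL17B (-0.74, adjusted p = 0.0887). RPL25, which lies at the exit where the signal recognition particle docks, averaged -2.22, -1.08 and -2.05. RPL40A and RPL40B, made as ubiquitin fusions, were called lower in every strain, as were RPL1A and RPL1B of the L1 stalk, the mobile arm where spent transfer RNA leaves.

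The 11 single-copy genes have no second copy with which a probe could be shared. They had medians of -2.22, -1.08 and -1.96, close to those of all 80 members, and 11, 10 and 11 of them were called lower. RPP0 in the nup84 null was the exception. Within this group RPL32 lay lowest in the gcr1-labelled strain, with -1.75, -2.30, -2.48 and -3.45 (5.64-fold below wild type, adjusted p = 0.000199). It was nearer wild type in the double-labelled strain, at -0.87, -1.24, -1.55 and -2.24, the second smallest fall among the single-copy genes there. RPL38 was lowest in the other strains, at -1.28 in the nup84 null and -2.35 in the double-labelled strain. RPL30, whose protein binds its own transcript and holds back its splicing, averaged -2.31, -1.05 and -1.96, and RPL28, known for cycloheximide resistance alleles, -2.23, -1.08 and -2.07. RPL29 averaged -2.36, -0.77 and -1.87, and RPL39, a short protein of the tunnel wall, -2.10, -0.77 and -1.64.

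RPL9A (YGL147C) fell furthest of all members in the gcr1-labelled and double-labelled strains. Its log2 ratios were -2.63, -2.89, -3.45 and -4.22 on the arrays of the gcr1-labelled strain and -2.84, -2.73, -3.76 and -4.23 on those of the double-labelled strain. These correspond to 9.83-fold and 10.5-fold below wild type (adjusted p = 0.00011 and 5.35e-05), 7th and 9th lowest of all genes. In the nup84 null RPL9A gave -0.84, -1.41, -1.64 and -2.24, all above both other sets. RPL20A (YMR242C) was the lowest member of the nup84 null, at -1.14, -1.79, -1.51 and -2.38 (3.26-fold below wild type, adjusted p = 0.00657), 11th lowest of all genes. It was also among the lowest 3 members elsewhere, averaging -2.95 in the gcr1-labelled strain and -3.11 in the double-labelled strain. RPL31A, a protein at the tunnel exit, averaged -2.83, -1.66 and -3.11, and RPL14B -2.91, -1.26 and -2.88.

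RPL15B (YMR121C) was the only member called in none of the strains. Its log2 ratios were 0.30, -0.17, 0.05 and -0.76 in the gcr1-labelled strain, 0.01, -0.26, -0.43 and -0.52 in the nup84 null, and 0.66, 0.02, 0.12 and -0.66 in the double-labelled strain. All 3 strains overlapped and 6 of the 12 arrays lay above wild type. The means were -0.14 ± 0.25 (adjusted p = 0.7), -0.30 ± 0.25 (adjusted p = 0.452) and 0.04 ± 0.25 (adjusted p = 0.924). RPL15A (YLR029C), the copy that yeast cells cannot do without, fell in every strain. It gave -1.76, -1.83, -2.31 and -3.19 in the gcr1-labelled strain (4.84-fold below wild type, adjusted p = 0.000155). The nup84 null arrays read -0.32, -0.37, -1.28 and -1.25 (adjusted p = 0.0333) and those of the double-labelled strain -1.45, -1.39, -2.32 and -2.34 (adjusted p = 0.000305). No array of RPL15A overlapped any array of RPL15B in the gcr1-labelled and double-labelled strains. The 2 probes of RPL15A differed by at most 0.148 in a strain mean.

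RPL7B (YPL198W) had the largest SE of the members. On arrays 1 to 4 of the gcr1-labelled strain it stood at 0.19, -2.69, -0.69 and -1.45, a mean of -1.16 ± 0.37 (adjusted p = 0.0414). Without arrays 2 and 4 of that strain the mean was -0.25 and was not called (adjusted p = 0.735). It was not called in the nup84 null, at -1.40, -1.17, -0.74 and -0.73 (adjusted p = 0.0987), or in the double-labelled strain, at -1.37, -0.89, -1.02 and -0.54 (adjusted p = 0.0727). In both of these strains its Cy3 arrays were on average above its Cy5 arrays, which held for no other member there. RPL7A fell evenly, averaging -1.91, -0.95 and -1.70. The remaining members that were not called in the nup84 null, apart from RPL15B, RPL7B and those given above, were RPL13A (-0.86, adjusted p = 0.0614) and RPL13B (-0.57, adjusted p = 0.175).

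Paralogues sit on the same array, so the difference between the A and the B log2 ratio is free of array centring. It was tested for all 61 gene pairs of the table whose symbols differ only in a final A or B, with p-values adjusted over the 61 pairs. Differences passed the test for 10 of the 34 large-subunit pairs in the gcr1-labelled strain, against 32.8% of all 61 pairs. In the nup84 null 4 passed, against 13.1% of all 61, and in the double-labelled strain 17, against 47.5%. The shares of large-subunit pairs were close to those over the whole set. That set holds the 34 large-subunit pairs themselves and only 27 others, so the closeness was partly built in. Typical differences were small, with a median size of 0.18, 0.07 and 0.22 on the log2 scale. The A copy was the lower one in 7 of 10, 4 of 4 and 11 of 17 called large-subunit pairs. In the whole set, with these pairs included, it was the lower one in 11 of 20, 7 of 8 and 15 of 29 called pairs. Differences were called in at least 1 strain for 19 pairs and in none for 15, and RPL20 was the only pair called in all 3. The counts of the gcr1-labelled strain and the nup84 null rest on both samples. Leaving out arrays 1 and 3 or arrays 2 and 4 of the gcr1-labelled strain left 1 and 0 pairs called there, the same omissions in that strain or in the nup84 null left 0 in the nup84 null, and leaving out arrays 2 and 4 of the double-labelled strain left 7.

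**Figure D2:**
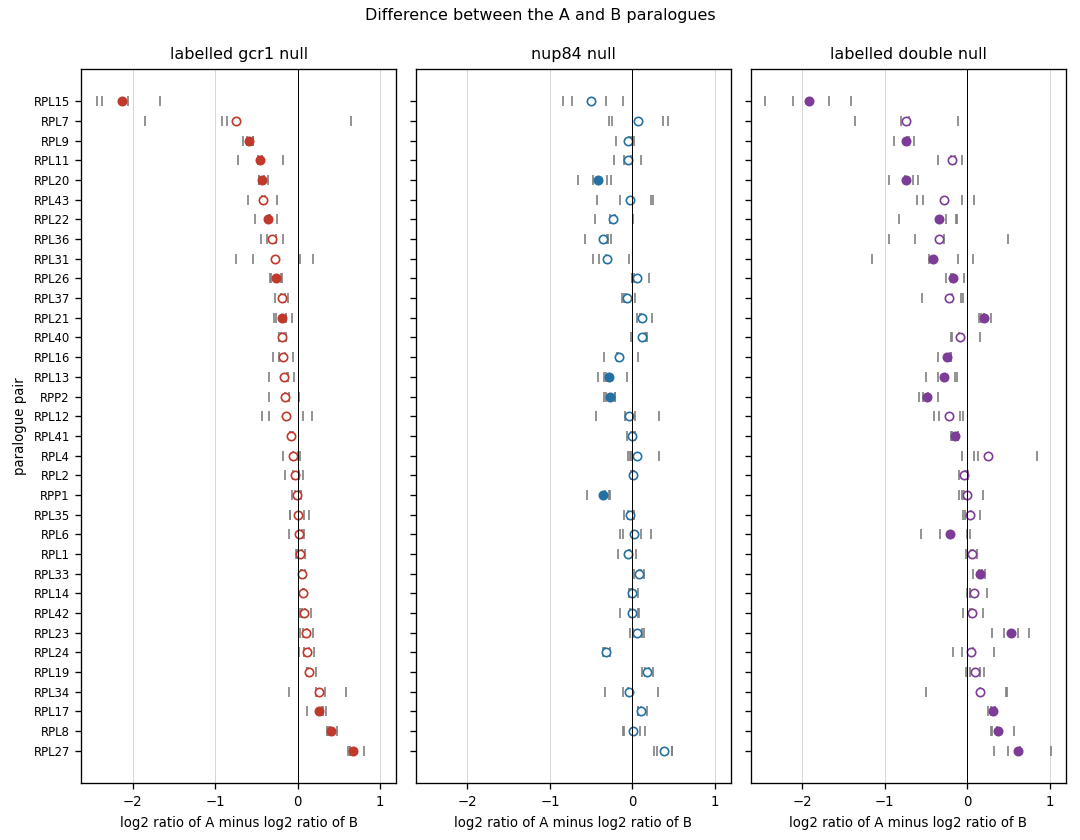
Log2 ratio of the A copy minus that of the B copy (horizontal axis) for the 34 large-subunit pairs in the 3 strains. Grey ticks are the 4 arrays and circles their mean, filled where limma called the difference. RPL15 has the lowest values in the left and right panels, at -2.13 and -1.91, and most other pairs lie near 0.

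RPL15 had the widest gap between copies. A minus B was -2.06, -1.67, -2.37 and -2.43 in the gcr1-labelled strain and -2.11, -1.41, -2.45 and -1.68 in the double-labelled strain (adjusted p = 0.0014 and 0.00274). The nup84 null gave -0.33, -0.11, -0.85 and -0.73, a mean of -0.50 ± 0.18 that was not called (adjusted p = 0.164). All 12 arrays had RPL15A below RPL15B. The difference between strains was itself tested: the gap was wider by 1.63 ± 0.25 in the gcr1-labelled strain than in the nup84 null (adjusted p = 0.0223), and by 1.41 ± 0.25 in the double-labelled strain (adjusted p = 0.0405). With a sample of the gcr1-labelled strain left out, its own gap was -2.05 (adjusted p = 0.0583, without arrays 1 and 3) or -2.21 (adjusted p = 0.0556, without arrays 2 and 4).

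RPL9, whose A copy lay lowest in the gcr1-labelled and double-labelled strains, had a difference between copies that varied little from array to array. A minus B was -0.54, -0.54, -0.66 and -0.61 in the gcr1-labelled strain (adjusted p = 0.0014) and -0.71, -0.73, -0.64 and -0.89 in the double-labelled strain (adjusted p = 0.000922). In the nup84 null it was -0.02, 0.02, -0.04 and -0.20 (adjusted p = 0.581), with no array reaching the other strains' ranges. The gap differed from that of the nup84 null by -0.53 ± 0.07 (adjusted p = 0.0152) and by -0.68 ± 0.07 (adjusted p = 0.00701). Without arrays 2 and 4 of the gcr1-labelled strain, the gap there was -0.60 and missed the threshold (adjusted p = 0.0556). RPL20 had its A copy lower by 0.43, 0.42 and 0.74 in the 3 strains. Its arrays ran from -0.26 to -0.66 in the nup84 null and from -0.60 to -0.95 in the double-labelled strain, and the adjusted p was 0.0155, 0.042 and 0.0032. No difference between strains was called for RPL20 (adjusted p from 0.121 to 0.974), and the nup84 null call was lost without arrays 1 and 3 (-0.57, adjusted p = 0.0511) or arrays 2 and 4 (-0.28, adjusted p = 0.164) of that strain. Without either sample of the gcr1-labelled strain, the RPL20 call of that strain was lost too (-0.44 and -0.41, adjusted p = 0.13 and 0.146).

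**Figure D3:**
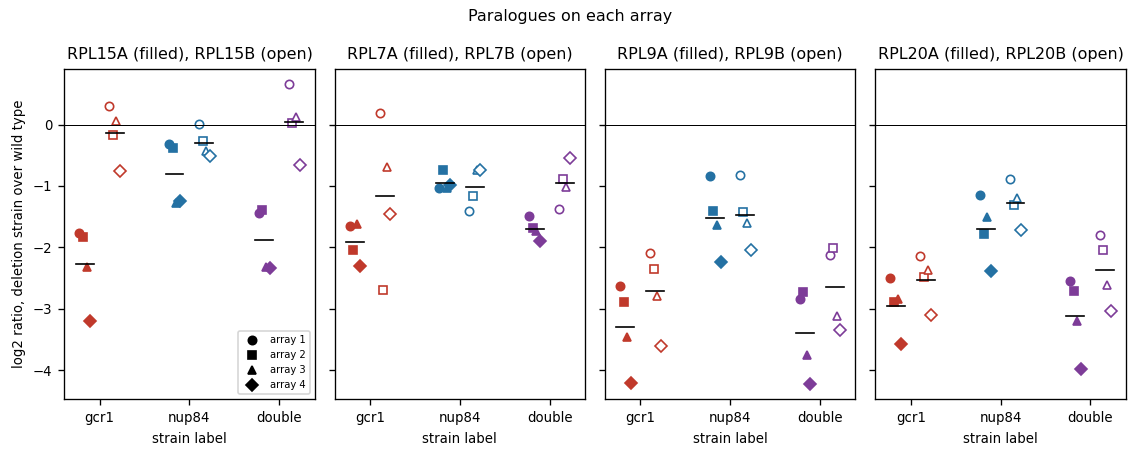
Log2 ratios of both copies of RPL15, RPL7, RPL9 and RPL20 (vertical axis) in the 3 strains (horizontal axis, by label). Each symbol is 1 array, filled for A and open for B, and bars are means of 4 arrays. RPL15A and RPL15B are apart in the gcr1-labelled and double-labelled strains, while the 4 values of RPL7B in the gcr1-labelled strain run from 0.19 to -2.69.

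Several pairs went the other way, with the B copy lower. RPL27A lay above RPL27B on all 12 arrays, by 0.61, 0.63, 0.63 and 0.81 in the gcr1-labelled strain (adjusted p = 0.0146). It lay above by 0.30, 0.48, 0.26 and 0.48 in the nup84 null (adjusted p = 0.0986) and by 1.02, 0.50, 0.64 and 0.32 in the double-labelled strain (adjusted p = 0.0124). RPL17A and RPL33A also stood above their partners on all 12 arrays, while RPL13A, RPL15A and RPL20A stood below theirs on all 12. RPL8A exceeded RPL8B by 0.40 and 0.38 in the gcr1-labelled and double-labelled strains (adjusted p = 0.0155 and 0.0152) and by 0.0079 in the nup84 null (adjusted p = 0.943). That change of the RPL8 gap between strains was not called (adjusted p = 0.0682 and 0.0816). RPL23 separated in the double-labelled strain, where A minus B was 0.45, 0.30, 0.75 and 0.61 (adjusted p = 0.00343). In the other strains the RPL23 copies differed by at most 0.18 on every array, and the gap was wider in the double-labelled strain than in the nup84 null by 0.47 ± 0.09 (adjusted p = 0.0405). Against the gcr1-labelled strain it was wider by 0.43 ± 0.09, which was not called (adjusted p = 0.068).

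For the other called pairs, A minus B was as follows. RPL22 was called in the gcr1-labelled strain (-0.36, adjusted p = 0.0399) and the double-labelled strain (-0.34, adjusted p = 0.0388). RPL17 was called in the same strains (0.26 and 0.31, adjusted p = 0.0181 and 0.0103). RPL13 was called in the nup84 null (-0.29, adjusted p = 0.0424) and the double-labelled strain (-0.28, adjusted p = 0.0171). Further pairs called in the double-labelled strain and in no other were RPL31 (-0.42), RPL16 (-0.24), RPL6 (-0.21), RPL41 (-0.15) and RPL33 (0.15), with adjusted p from 0.0197 to 0.0401. Arrays of that strain lay on both sides of 0 for RPL31, at 0.06, -0.12, -0.46 and -1.15, and for RPL6, at -0.005, 0.037, -0.33 and -0.56. RPL7 was not called in any strain, with -0.75 in the gcr1-labelled strain and -0.74 in the double-labelled strain (adjusted p = 0.151 and 0.117). RPL21 and RPL26 were called in both of these strains, RPL21 with opposite signs (-0.19 and 0.20) and RPL26 at -0.26 and -0.17.

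A minus B was also compared between strains. It changed for 5 of the 34 large-subunit pairs between the gcr1-labelled strain and the nup84 null, against 18.0% of all 61 pairs. Between the double-labelled strain and the nup84 null it changed for 3, against 8.2% of all 61. Between the double-labelled and gcr1-labelled strains 1 pair, RPL21, passed, against 4.92% of all 61, with a change of 0.38 ± 0.06. Against the sum of the gcr1-labelled strain and the nup84 null, 5 pairs had an unadjusted p under 0.05, against 7 of all 61. In limma 0 passed there, where 1.64% of all 61 did. Each of these counts but the last fell to 0 when arrays 1 and 3 of the nup84 null were left out.

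The P1 and P2 pairs of the stalk differed in how their copies moved. RPP1A minus RPP1B was -0.28, -0.55, -0.27 and -0.33 in the nup84 null (adjusted p = 0.0258), where RPP1A was called lower and RPP1B was not. The same difference averaged -0.0102 in the gcr1-labelled strain and -0.0033 in the double-labelled strain, with arrays on both sides of 0. Between the gcr1-labelled strain and the nup84 null it changed by 0.35 ± 0.08 (adjusted p = 0.0457). RPP2A lay below RPP2B by 0.27 in the nup84 null and by 0.49 in the double-labelled strain (adjusted p = 0.0424 and 0.0032), and by 0.15 in the gcr1-labelled strain (adjusted p = 0.129). The nup84 null calls of RPP1 and RPP2 were lost with arrays 1 and 3 left out (adjusted p = 0.0511 and 0.169) and with arrays 2 and 4 left out (adjusted p = 0.164 and 0.203) of that strain.

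Most members lay nearer wild type in the nup84 null than in either other strain, yet no single member passed the test of the difference. All contrasts between strains share arrays. The gcr1-labelled strain minus the nup84 null had a median of -1.21 over the members (-0.03 over all genes). Of the 80 members, 79 were below 0, against 2948 of 5636 genes. In limma 0 members were called, with 75 at an unadjusted p under 0.05, against 703 of 5636 genes. All 4 arrays of the gcr1-labelled strain lay below all 4 of the nup84 null for 66 members, against 11.8% of all genes. The double-labelled strain minus the nup84 null had a median of -1.001 (-0.03 over all genes), with 78 members below 0, against 2918 of 5636 genes. Here 0 members were called and 65 had an unadjusted p under 0.05, against 892 of 5636 genes. All 4 arrays of the double-labelled strain lay below all 4 of the nup84 null for 43 members, against 7.15% of all genes. Few differences of these kinds were called for any gene, 0.124% and 0.106% of all genes as lower and 0.39% and 0.639% as higher. The lowest adjusted p of a member was 0.0594 for RPL24B in the first contrast and 0.0509 for RPL9A in the second. RPL24B was named after its values were seen. Results of the arrays 1 with 4 pairing alone were far more permissive, with 78 members called in both contrasts.

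The double-labelled and gcr1-labelled strains were not told apart for any member. The double-labelled strain minus the gcr1-labelled strain had a median of 0.14 over the members and 0.0008 over all genes, with 7 members below 0. No member was called, as with 0.0% of all genes. An unadjusted p under 0.05 was reached by 3 of 80 members, no larger a share than the 298 of all 5636 genes. The 3 members were RPL32 (1.02 ± 0.35), RPL19B (0.89 ± 0.29) and RPL19A (0.84 ± 0.29), each with an adjusted p of 0.717. RPL19A and RPL19B, named after their values were seen, were the only members whose arrays did not overlap between these strains in that direction, against 4.1% of all genes. RPL19A gave -2.10, -2.27, -2.40 and -2.90 in the gcr1-labelled strain and -1.33, -1.23, -1.69 and -2.05 in the double-labelled strain. Set against the sum of the log2 ratios of the gcr1-labelled strain and the nup84 null, the double-labelled strain was less reduced by a median of 1.25 (0.02 over all genes). All 80 members lay on that side, against 2888 of 5636 genes. In limma 0 members were called and 72 had an unadjusted p under 0.05, against 909 of 5636 genes. The sizes ran from 0.48 for RPL15B to 2.26 for RPL19B. This contrast is double minus gcr1 less the nup84 null log2 ratio, both given above, so it is no separate result. Wild type does not cancel in it.

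**Figure D4:**
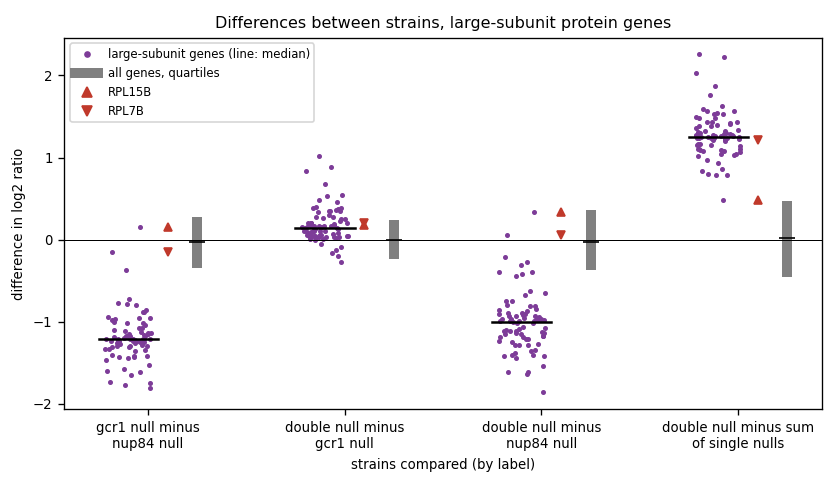
Difference in log2 ratio between strains (vertical axis) for each large-subunit protein gene, with the median as a line, beside the quartiles of all genes as a grey bar. RPL15B and RPL7B are marked with triangles. The members lie near -1.21, 0.14, -1.001 and 1.25, while the grey bars span 0.

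Genes around the large subunit were read the same way. The 55 small-subunit protein genes had medians of -2.27, -1.13 and -2.11, with 55, 52 and 55 called lower, so the large subunit was not apart from its partner in these values. The 34 mitochondrial large-subunit (MRPL) genes had medians of -0.38, -0.19 and -0.21, with 4, 0 and 5 called lower and 0, 0 and 1 higher. Over all genes, 17.7%, 8.09% and 18.9% were called lower and 17.2%, 8.61% and 20.5% higher. Several members lie next to another measured cytosolic ribosomal protein gene, 8 such neighbouring pairs in the R64 gene order, among them RPL13A with RPP1A and RPL24A with RPL30.

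Among 13 genes for regulators of ribosomal protein genes, 3, 1 and 2 were called lower and 2, 0 and 2 higher. Of all genes, 17.7%, 8.09% and 18.9% were called lower and 17.2%, 8.61% and 20.5% higher. The 2 called higher were CRF1 and GCR1 itself, whose values go against its labels. CRF1 averaged 0.95 and 1.28 in the gcr1-labelled and double-labelled strains, with arrays 1 and 2 between -0.26 and 0.18 and arrays 3 and 4 between 1.70 and 2.60. HMO1, the high-mobility-group protein of these promoters, fell in each strain, to log2 ratios of -1.18, -0.93 and -1.20. RAP1 fell to -0.74 and -0.87 in the gcr1-labelled and double-labelled strains and stood at -0.66 in the nup84 null (adjusted p = 0.0546). ABF1, a general promoter-binding factor, fell to -0.79 in the gcr1-labelled strain. CRF1, a corepressor of these genes, rose to 0.95 and 1.28 in the gcr1-labelled and double-labelled strains. Its arrays split by dye, with -0.03, -0.26, 2.39 and 1.70 in the first of these. FHL1 and IFH1 were called in no strain, with FHL1 between -0.10 and -0.03 in the 3 means.

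Of 11 genes for chaperones, loading factors and other assembly factors of the large subunit, 10, 6 and 11 were called lower. The shares over all genes were 17.7%, 8.09% and 18.9%. The 11 had medians of -1.13, -0.78 and -1.39. MRT4, which holds the place of RPP0 on the maturing subunit, fell to log2 ratios of -2.25, -1.37 and -2.24. BCP1, the chaperone of RPL23, fell to -2.20, -1.03 and -1.81. RPF2, which with RRS1 brings in the 5S complex, fell to -2.01, -1.03 and -2.25. SQT1, the chaperone of RPL10, was called in the double-labelled strain (-0.69, adjusted p = 0.0367) and not in the gcr1-labelled strain (-0.43, adjusted p = 0.168) or the nup84 null (-0.21, adjusted p = 0.542). The fall of RPL10 itself was smaller than that of all other members but RPL15B and RPL7B in the gcr1-labelled strain.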

How the data were processed

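The authors' deposited table held 1 value per probe and array for 10807 probes on 12 arrays. As deposited, values were taken to be log2 of Cy5 over Cy3. The log base is not written, and the size of the values (17.745 at most) does not settle it, so log2 is an assumption that every fold rests on. Correction, scaling or centring by the authors before deposit: not given in the sources used here. No channel intensities were used, so dim and saturated spots were not marked, and the number of arrays limits the precision.

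The platform annotation named 1 gene for 9271 probes and none for 1536. Probes were averaged per gene, which gave 5636 genes, and 0 symbols changed against the R64 gene table. The 80 members had 124 probes, 44 members with 2 and 36 with 1. The 2 probes of a member differed in a strain mean by 0.148 at most. Arrays 3 and 4 of each strain, with dyes exchanged per the labels, had their signs turned, and each array was centred on its median over genes (-0.163 to 0.099 before centring).

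Per the labels' design text, 4 arrays are biological samples with technical dye swaps, taken as 2 samples. The labels do not say which arrays are swaps of each other, so limma 3.58.1 (R 4.3.3, lmFit and eBayes, 3 strains in 1 fit, 3 residual degrees of freedom) was fitted to pair means under both pairings. The larger two-sided p and the larger SE were kept, with Benjamini-Hochberg adjustment over 5636 genes, or over 61 A and B pairs, at a threshold of 0.05. The SE is pooled over strains. In the pairing of array 1 with 3, the pair means of a strain differed with an SD across genes of 0.497, 0.421 and 0.808 in the gcr1-labelled strain, the nup84 null and the double-labelled strain. By that measure the pooled SE is too small for the double-labelled strain and too large elsewhere. On simulated data of 5636 genes, the gene fit recovered 87%, 87% and 83% of 100 genes changed by 2 on the log2 scale, in the same order of strains. Of those changed by 1 it recovered 47%, 37% and 40%, and it called 12, 4 and 8 unchanged genes. The simulation gave the 3 strains the same spread per gene and no dye shift, so it does not describe how the strains differ in power.

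The members, lists and tests were chosen with earlier results of these data known. The text names the 3 lowest and the 3 highest members of each strain, all members not called, single-copy, stalk and 5S genes, called pairs and the pairs that differed most in a strain or between strains; members outside this rule were named after their values were seen. Alternatives were the swap pairing, 4 arrays as replicates, each sample left out, first probes only, a replicate block, other centring and scaling, and a size threshold. No sequence or coordinate is given, since the array's genome build and sequence tables were not used here. Plots were made with matplotlib 3.10.9 (Python 3.11.15).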

Additional observations from a re-analysis of the deposited data

Results flagged for a closer look

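The difference between the A and B copies changed between strains, by limma's test of that change with adjustment over 61 pairs, for 6 large-subunit pairs. Between the gcr1-labelled strain and the nup84 null, A minus B changed by -1.63 for RPL15 (adjusted p = 0.0223), by -0.53 for RPL9 (adjusted p = 0.0152) and by 0.35 for RPP1 (adjusted p = 0.0457). In the same comparison RPL21 changed by -0.31 and RPL26 by -0.31 (both adjusted p = 0.0384). RPL21A lay below RPL21B on all 4 arrays of the gcr1-labelled strain, at -0.14, -0.06, -0.26 and -0.28, and above it on all other arrays. Between the double-labelled and gcr1-labelled strains the RPL21 difference changed by 0.38 (adjusted p = 0.0365). RPL26A lay below RPL26B by 0.26 in the gcr1-labelled strain (adjusted p = 0.0155) and 0.05 above it in the nup84 null (adjusted p = 0.581). Between the double-labelled strain and the nup84 null, the change was -1.41 for RPL15 (adjusted p = 0.0405), -0.68 for RPL9 (adjusted p = 0.00701) and 0.47 for RPL23 (adjusted p = 0.0405). The counts called, 5, 1 and 3 of 34 pairs, were close to or below 18.0%, 4.92% and 8.2% of all 61 pairs, which include the 34. The changes are therefore results about single pairs and not about the large-subunit pairs as a group. Leaving out arrays 1 and 3 or arrays 2 and 4 of the gcr1-labelled strain or of the nup84 null left 0 of these called, except that 1 of the 3 was called without arrays 2 and 4 of the nup84 null. None of 90 groups of 4 arrays (the named genes and the median member in each strain) held an array that stood apart by Dixon's test, where chance gives about 1 in 20. Arrays 3 and 4 lay below arrays 1 and 2 on average for most members. With 4 arrays so divided the test could hardly flag 1, so the lack of flags does not show that no array deviated.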

How the results depend on the processing

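Counts of members called lower stayed within 1.5 times of 79, 71 and 78 under every alternative except the omission of a nup84 null sample. Leaving out 1 sample gave 77 to 79, 0 to 80 and 78 to 79 members called lower, and medians (1 array left out) from -2.49 to -2.09, from -1.23 to -0.958 and from -2.30 to -1.84. Between strains no member was called in the 4 contrasts (gcr1-labelled strain minus nup84 null, double minus gcr1, double minus nup84, double minus the sum), and this depended on the pairing of swaps. With arrays 1 and 4 as swaps, 78, 17, 78 and 80 members were called. With 4 arrays as replicates, 44, 33 and 38 were called in contrasts 1, 3 and 4. Centring without ribosomal protein genes called 1 in contrast 3, and scaling the spread between arrays (limma's normalizeMedianAbsValues, the function behind the scale method) called 71 in contrast 4. Leaving out a sample gave 0 to 79, 0 to 20, 0 to 78 and 0 to 80. Sample numbers were not taken to pair the samples, since not every correlation of the deviations of equally numbered samples was over 0.1. It was -0.0053, 0.552 and 0.0985 (gcr1 with nup84, gcr1 with double, nup84 with double) with array 1 paired with 3, and 0.004, 0.252 and 0.219 with array 1 paired with 4. The fit with sample number as a replicate block called 5 and 4 members in contrasts 1 and 3, 2 pairs in the nup84 null, and 2 and 0 pairs in contrasts 1 and 2. For pairs, arrays 1 and 4 as swaps gave 22 in the gcr1-labelled strain, 10 in the nup84 null, and 12, 2, 15 and 4 in the contrasts. With 4 arrays as replicates 7 pairs were called in the nup84 null and 9, 3 and 10 in the first 3 contrasts, and with first probes 2 in the nup84 null and 0 in contrast 2. Leaving out a sample gave 0 to 20, 0 to 11 and 7 to 23 pairs in the strains and 0 to 13, 0 to 5, 0 to 15 and 0 to 7 in the contrasts. Among named genes, RPL15B changed sign when a sample was left out, in the gcr1-labelled strain (-0.46 to 0.18) and the double-labelled strain (-0.32 to 0.39). RPL15B was called in neither strain. Pair differences that were not called changed sign as well, among them RPL8 in the nup84 null (-0.10 to 0.12) and RPL22 in double minus gcr1 (-0.18 to 0.23). The RPL7 difference also turned, in double minus gcr1 (-0.64 to 0.64) and in double minus the sum (-0.70 to 0.58). In double minus gcr1 it was -0.60 without arrays 1 and 4 of the gcr1-labelled strain. In double minus the sum it was 0.54 without arrays 2 and 3 of that strain. The cause of these changes was not tested. Over all alternatives, named genes kept direction and call in 1581 values, gained the call in 105 and lost it in 51. Named pairs kept the call in 2200 values, gained it in 168 and lost it in 150. For pairs, a change of sign was not counted where neither fit called the difference.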
